A study of Mus musculus with 24 samples.

Results

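RNA-seq of 3T9 cells, an immortalised mouse fibroblast line, was compared between cells carrying the HEA form of MycER and cells carrying the WT form, both kept in OHT for 8 h. The comparison takes 6 of the 24 libraries of the series, 3 per form. It covers 12268 of the 21671 genes in the table, namely those with at least 1 RPKM in at least 3 of the 24 libraries. RPKM is a read count corrected for gene length and for the size of the library. MycER is a fusion of the transcription factor Myc with an oestrogen receptor domain, and its ligand OHT (4-hydroxytamoxifen) activates it. A further 3 libraries of cells infected with an empty vector (EV) and kept in OHT for 8 h serve as a level beside both forms, and the same forms after 4 h in OHT as a second time. The remaining libraries are EV cells at 4 h and cells carrying another form, MycER RA, at 4 h and 8 h. They are not compared here but entered the same fit, so the gene filter and the p-values rest partly on them. All groups share the parental line, the infection and the OHT, and the cells' own Myc gene is present in each of them. The series title asks how non-specific and sequence-specific contacts of Myc with DNA each contribute to gene regulation.

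Myc pairs with Max and binds DNA through a basic region, preferentially at E-boxes with the letters CACGTG, and it is known for activating genes of ribosome production, nucleotide synthesis and cell cycle entry. It also lowers genes of growth arrest, in part through other factors such as Miz1. The labels do not say which residues HEA changes. As background from the published work on these proteins, HEA replaces a histidine and a glutamate of the basic region that contact the bases of the E-box by alanines, and leaves the contacts with the DNA backbone in place.

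The depth recovered from the RPKM steps was 10.1 to 10.9 M reads per library in HEA, 10.1 to 11.3 M in WT and 11.1 to 12.5 M in EV. Esr1, the gene of that receptor, marks the constructs and stood at 10.2 ± 0.88 RPKM in HEA, 11.2 ± 2.3 RPKM in WT and 0.189 ± 0.097 RPKM in EV (SD, n = 3 each). The HEA and WT ranges of Esr1 overlapped, and their log2 difference was -0.11 ± 0.14 (SE, adjusted p = 0.53). Myc stood at 46.8, 55.7 and 45.9 RPKM in HEA, 29.3, 40.0 and 47.1 RPKM in WT, and 57.9, 56.5 and 60.2 RPKM in EV. Reads of the cells' own Myc and of the fusion cannot be told apart here, and the HEA and WT ranges of Myc overlapped. Its log2 difference of HEA over WT was 0.37 ± 0.17 (SE, adjusted p = 0.075) at 8 h. At 4 h it was 0.46 and passed the threshold (adjusted p = 0.028). Against EV at 8 h, Myc was lower in WT (log2 -0.60, adjusted p = 0.0075) and did not pass in HEA (log2 -0.24, adjusted p = 0.25). Replicate 3 of WT at 8 h stood apart from the other libraries: its reads differed from those of the other WT libraries with a chi-square per degree of freedom of 14.0 and 15.8, against 2.69 between those other libraries and 3.13 to 5.83 among the HEA libraries. Counts below are given with and without it where it matters. Whether the replicates are separate cultures is not in the labels, and the p-values therefore reflect only how far these libraries spread, which may be technical.

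Nearly equal numbers of genes lay on each side. Of the tested genes, 5887 (48.0%) differed between HEA and WT past an adjusted p of 0.05, with 2866 (23.4%) higher in HEA and 3021 (24.6%) lower. Without replicate 3 of WT, 5609 genes passed, 2667 higher and 2942 lower. With only the HEA and WT libraries at 8 h in the fit, 5307 passed, 2585 higher and 2722 lower. The median log2 fold change over all tested genes was -0.01. RPKM are scaled to the size of each library, so a shift of all genes in 1 direction could not be seen, and the balance partly follows from the scaling. Most called differences were small: 1136 of the higher and 1424 of the lower genes differed by less than 0.5 on the log2 scale, and a further 1138 and 1154 by 0.5 to 1. At least 2-fold differences were seen for 592 higher genes (4.83% of those tested) and 443 lower genes (3.61%). Beyond a log2 fold change of 2 there were 70 higher and 35 lower genes. In 6814 genes (55.5%) all 3 HEA libraries lay on the same side of all 3 WT libraries. Fold changes are on the scale of log2(RPKM + 0.5) throughout, HEA over WT, and understate the change of genes with low RPKM.

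**Figure D1:**
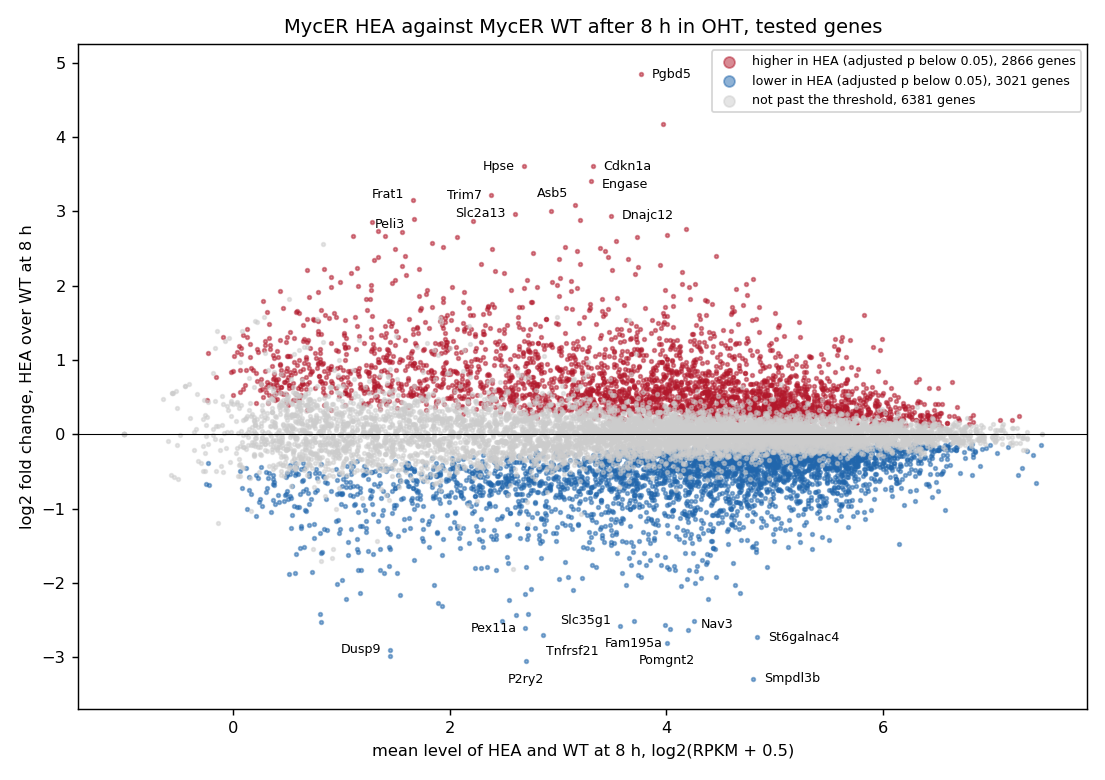
Log2 fold change of HEA over WT at 8 h (vertical axis) against the mean level of the HEA and WT libraries as log2(RPKM + 0.5) (horizontal axis), 1 point per tested gene. Red points are the 2866 genes called higher in HEA, blue points the 3021 called lower and grey points the rest, with the 10 highest and 10 lowest named genes marked. Widest apart are Pgbd5 at 4.85 above and Smpdl3b at -3.28 below.

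The widest rise in HEA was that of Pgbd5, a gene derived from a piggyBac transposable element. It had 26.0, 27.4 and 23.7 RPKM in HEA, 0.444, 0.251 and 0.562 RPKM in WT, and 0.0623, 0.0568 and 0.0318 RPKM in EV. All HEA libraries were far above the others, and EV was the lowest group (HEA over WT, log2 4.85 ± 0.14, adjusted p = 1.4e-15). Cdkn1a, which encodes the cyclin-dependent kinase inhibitor p21 and is a long-known gene lowered by Myc, had 17.5, 19.4 and 16.9 RPKM in HEA, 0.566, 1.20 and 1.39 RPKM in WT, and 3.26, 3.47 and 3.73 RPKM in EV. The 3 groups did not overlap, with EV between the forms (log2 3.61 ± 0.26, adjusted p = 5.6e-10). Against EV the Cdkn1a level was thus higher in HEA (log2 2.21) and lower in WT (log2 -1.40), both past the threshold.

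Hpse, the heparanase that cuts heparan sulfate chains, had 10.2, 12 and 12 RPKM in HEA, 0.463, 0.509 and 0.456 RPKM in WT, and 0.455, 0.369 and 0.438 RPKM in EV. Here WT and EV stood at about the same low level and HEA alone was high (log2 3.61 ± 0.18, adjusted p = 5.4e-12). Engase, an endoglycosidase that removes glycans from proteins in the cytosol, had 16.4, 17.8 and 18.5 RPKM in HEA, 1.29, 1.05 and 1.29 RPKM in WT, and 1.66, 0.967 and 1.4 RPKM in EV. WT and EV overlapped (HEA over WT, log2 3.40 ± 0.15, adjusted p = 8.0e-13). The rest of the highest 10 ran from a log2 fold change of 3.22 to 2.89. They were Trim7 (an E3 ubiquitin ligase), Frat1 (which binds GSK3 in Wnt signalling), Asb5 (a SOCS box protein), Slc2a13 (a myo-inositol transporter), Dnajc12 (a co-chaperone) and Peli3 (a Pellino ubiquitin ligase). Asb5 showed another order from Hpse: it had 18, 17.2 and 11.2 RPKM in HEA, 1.08, 2.02 and 1.07 RPKM in WT, and 7.30, 10.1 and 7.84 RPKM in EV. For this gene the WT level was well below EV (log2 -2.26) and the HEA level above it (log2 0.83), both past the threshold.

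Among the 10 highest genes, EV libraries lay between the forms and apart from both in 4 (Cdkn1a, Trim7, Asb5 and Slc2a13), below both in 2 (Pgbd5 and Hpse), and overlapped WT in 4 (Engase, Frat1, Dnajc12 and Peli3). For Hpse the gap was negligible, with 0.455 RPKM in the highest EV and 0.456 RPKM in the lowest WT library. WT did not pass against EV for Hpse (log2 0.09, adjusted p = 0.76). All 10 passed as higher in HEA against EV, beside 20.2% of all tested genes. Against EV the WT form passed as lower in 3 and higher in 1, Pgbd5, beside 20.1% and 15.2% of all tested genes. The genes were picked for a wide gap between the forms, and the place of EV was not counted over all tested genes. The comparisons against EV share the EV libraries with each other and the HEA or WT libraries with the comparison of the forms, so their values are set side by side as levels and give no separate evidence.

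**Figure D2:**
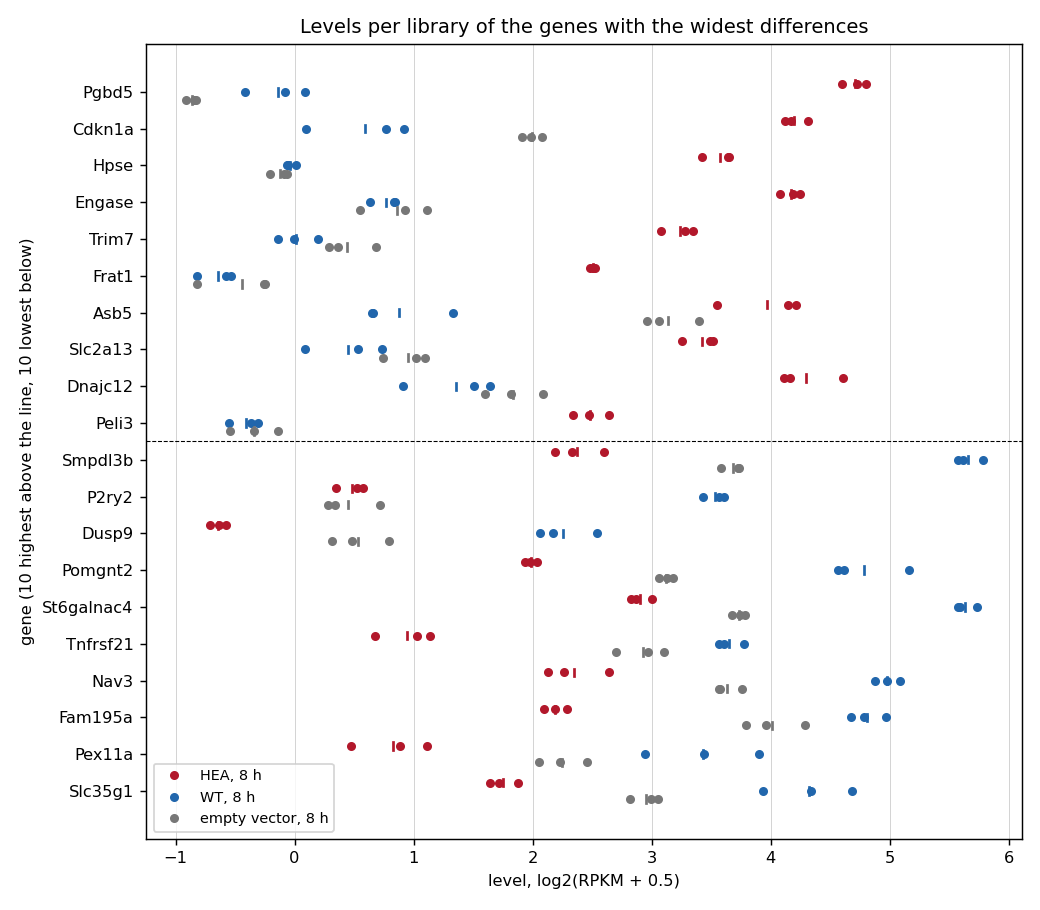
Levels as log2(RPKM + 0.5) in every library at 8 h for the 10 genes with the highest and the 10 with the lowest fold change of HEA over WT. Points are libraries (red HEA, blue WT, grey EV) and ticks are means of 3. HEA and WT never overlap, as the choice of genes requires, and EV lies between them in 9 of the lower 10 genes and in 4 of the upper 10. The place of EV was not counted over all tested genes.

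The lowest gene in HEA was Smpdl3b, which encodes a lipid-modifying phosphodiesterase at the cell surface. It had 4.53, 4.05 and 5.58 RPKM in HEA, 54.5, 48.5 and 47.2 RPKM in WT, and 12.7, 12.8 and 11.5 RPKM in EV. EV lay between the forms without overlap (HEA over WT, log2 -3.28 ± 0.11, adjusted p = 1.4e-14). P2ry2, a receptor for extracellular ATP and UTP, had 0.943, 0.988 and 0.774 RPKM in HEA, 11.7, 11.3 and 10.3 RPKM in WT, and 1.14, 0.712 and 0.768 RPKM in EV. Here HEA and EV overlapped and WT alone was high (log2 -3.05 ± 0.14, adjusted p = 1.6e-12).

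St6galnac4, a sialyltransferase, had the smallest p of all the named genes. It had 6.82, 6.58 and 7.53 RPKM in HEA, 52.7, 47.1 and 47.6 RPKM in WT, and 12.9, 12.3 and 13.3 RPKM in EV (log2 -2.73 ± 0.07, adjusted p = 1.3e-16). The 3 groups were apart, with EV between and nearer to HEA. The other lowest genes ran from a log2 fold change of -2.9 to -2.57. They were Dusp9 (a phosphatase of MAP kinases), Pomgnt2 (a glycosyltransferase acting on dystroglycan), Tnfrsf21 (death receptor 6), Nav3 (neuron navigator 3), Fam195a, Pex11a (peroxisome division) and Slc35g1 (a membrane transporter). In 9 of the 10 lowest genes, all but P2ry2, EV lay between HEA and WT and apart from both. Against EV, WT passed as higher in all 10 and HEA as lower in those 9, beside 15.2% and 27.5% of all tested genes. These genes too were picked for a wide gap between the forms. For P2ry2 the difference between HEA and EV was 0.04 on the log2 scale (adjusted p = 0.85).

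Promoter windows are shown because the E-box is the sequence that Myc is known to read. They are those of Cdkn1a and of the first 2 genes lower in HEA, by size of fold change, whose window holds CACGTG. These 2, Smpdl3b and P2ry2, are also the 2 lowest genes. The choice required the motif, so its presence in the 2 windows is not a result. Windows run from 250 bases before to 50 bases after the annotated start, 300 bases in all, from RefSeq on GRCm38.p6 (the authors' values were made on mm9), in the direction of the gene. Capitals mark CACGTG. The Smpdl3b window lies at chr4:132757122-132757421 on the minus strand, that of P2ry2 at chr7:101012004-101012303 on the minus strand, and that of Cdkn1a at chr17:29090729-29091028 on the plus strand. Cdkn1a was added, after its values were seen, as a gene higher in HEA, since no window among the 10 highest held the motif. P2ry2 and Cdkn1a have 2 windows each, of which the first listed is shown, and both of P2ry2's and neither of Cdkn1a's hold the motif.
Smpdl3b: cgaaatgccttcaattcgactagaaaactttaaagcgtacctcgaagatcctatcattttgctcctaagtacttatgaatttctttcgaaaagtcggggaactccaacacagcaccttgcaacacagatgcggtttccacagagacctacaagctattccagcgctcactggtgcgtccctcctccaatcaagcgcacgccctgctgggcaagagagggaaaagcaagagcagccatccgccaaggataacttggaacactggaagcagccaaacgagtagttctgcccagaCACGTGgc
P2ry2: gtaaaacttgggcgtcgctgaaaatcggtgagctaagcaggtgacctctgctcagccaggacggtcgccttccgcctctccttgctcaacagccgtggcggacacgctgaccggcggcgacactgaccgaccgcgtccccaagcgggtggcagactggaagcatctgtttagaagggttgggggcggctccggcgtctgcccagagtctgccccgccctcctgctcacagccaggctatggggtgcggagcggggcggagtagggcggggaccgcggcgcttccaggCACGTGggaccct
Cdkn1a: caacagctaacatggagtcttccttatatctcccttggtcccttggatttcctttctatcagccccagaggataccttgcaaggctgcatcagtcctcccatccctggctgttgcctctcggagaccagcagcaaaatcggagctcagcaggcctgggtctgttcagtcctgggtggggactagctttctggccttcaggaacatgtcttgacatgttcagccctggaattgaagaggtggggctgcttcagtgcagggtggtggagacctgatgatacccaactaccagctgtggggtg

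In the 2 windows chosen for holding it, the motif lies just downstream of the annotated start, beginning 42 bases after it in Smpdl3b and 37 bases after it in P2ry2. Among the 20 genes of widest difference, 3 of the 8 lower genes with a window held CACGTG and 0 of the 9 higher ones did. The motif is its own reverse complement, so both strands are read at the same time. It was present in 7.15% of all 32851 windows in the RefSeq table. Over tested protein-coding genes, 81.5% had a window, and 11.8% of those held the motif. The share was 23.3% for genes at least 2-fold lower in HEA (79 of 339) and 10.0% for genes at least 2-fold higher (45 of 448). Over all called genes it was 16.9% of the lower and 9.33% of the higher ones, beside 10.5% of genes not past the threshold. These shares are descriptions of the letters in the windows, and a match is not a binding site.

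Gene groups of ribosome production were lower in HEA. Over all tested genes 24.6% were called lower and 23.4% higher. The list counts of HEA against WT at 8 h below stand beside these shares. In the ribosome biogenesis list, which covers rRNA processing and assembly factors, 56 of 63 tested members fell, none rose and 7 did not pass, with a median log2 fold change of -0.64 beside -0.01 for all tested genes. The count of 0 higher members stayed at 0 at an unadjusted limma p under 0.05 and with voom, as did the counts of 0 given below for this list against EV, for ribosomal proteins, for collagens and matrix and for fibroblast markers. After quantile normalisation 2 ribosomal proteins passed as higher. Utp14a, a factor of the small-subunit processome, had 13.4, 15.2 and 13.0 RPKM in HEA, 41.1, 39.9 and 40.3 RPKM in WT, and 29.0, 30.3 and 27.8 RPKM in EV (log2 -1.52 ± 0.07, adjusted p = 1.6e-12). Rrp9, a protein of the U3 snoRNA particle, had 34.8, 39.8 and 36.3 RPKM in HEA, 100.1, 99.98 and 111 RPKM in WT, and 63.7, 57.1 and 60.8 RPKM in EV (log2 -1.47 ± 0.07). Both genes had EV in the middle, above HEA and below WT, and Heatr1, which acts in rRNA transcription and processing, showed the same order with a mean of 32.8 RPKM in HEA, 64.0 RPKM in WT and 46.1 RPKM in EV. Set against EV, 42 of the 63 members were lower and 6 higher in HEA (27.5% and 20.2% of all tested genes), and 0 were lower and 48 higher in WT (20.1% and 15.2% of all tested genes). Median centring of the libraries gave 33 members lower and 6 higher in HEA, and 0 lower and 53 higher in WT. Over all genes it turned the split of calls against EV from mostly lower to mostly higher, with 3053 higher and 2642 lower in HEA (53.6% higher, in place of 42.3%) and 2433 higher and 1976 lower in WT (55.2% higher, in place of 43.0%). The list medians against EV were -0.26 in HEA and 0.32 in WT, from comparisons that share the EV libraries.

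Subunits and factors of RNA polymerases I and III, which make rRNA and tRNA, followed with 21 of 33 members lower and 2 higher (median -0.41). Polr1b, the second-largest subunit of RNA polymerase I, had 22.7, 26.3 and 23.4 RPKM in HEA, 66.5, 63.1 and 66.0 RPKM in WT, and 36.2, 37.1 and 36.7 RPKM in EV (log2 -1.42 ± 0.07, adjusted p = 1.8e-12). Polr3d, a subunit of RNA polymerase III, averaged 19.4 ± 1.5 RPKM in HEA, 47.8 ± 1.5 RPKM in WT and 43.9 ± 1.5 RPKM in EV. For Polr3d the WT level did not pass against EV (log2 0.12, adjusted p = 0.18) and the HEA level was lower than EV (log2 -1.16). The members that rose were Gtf3c1, part of the TFIIIC complex (log2 0.58), and Brf1, part of TFIIIB (log2 0.34, adjusted p = 0.036). Brf1 did not pass when any of 5 of the 6 libraries was left out, all but WT replicate 3 (adjusted p 0.057 to 0.14).

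Few cytosolic ribosomal proteins were called: 8 of 47 members fell (17.0%, beside 24.6% of all tested genes), none rose, and the median was -0.08. Of the 47, 43 had more than 0.5 reads per base. The highest value in any gene of at least 500 bases was 1.91 reads per base. Whether differences of such deeply covered genes are narrowed in these values was not tested. Rps9 had 64.5, 66.1 and 65.4 RPKM in HEA, 80.5, 81.3 and 84.8 RPKM in WT, and 79.9, 77.4 and 79.2 RPKM in EV (log2 -0.33 ± 0.05). HEA was below both other groups in every library. At 0.835 reads per base, the recovered Rps9 reads averaged 921 in HEA, 1205 in WT and 1243 in EV. Translation factors and tRNA synthetases had 22 of 43 members lower and 2 higher (median -0.15), but 11 lower without HEA replicate 1. Wars, the tryptophanyl-tRNA synthetase, averaged 26.0 ± 2.0 RPKM in HEA, 40.3 ± 0.96 RPKM in WT and 38.2 ± 2.2 RPKM in EV (log2 -0.62 ± 0.07). The 2 that rose, Cars (log2 0.29) and Aars (log2 0.21), charge cysteine and alanine tRNAs. Cars did not pass without WT replicate 1 (adjusted p = 0.057), nor Aars without HEA replicate 3 or WT replicate 1 (adjusted p = 0.063 and 0.087).

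**Figure D3:**
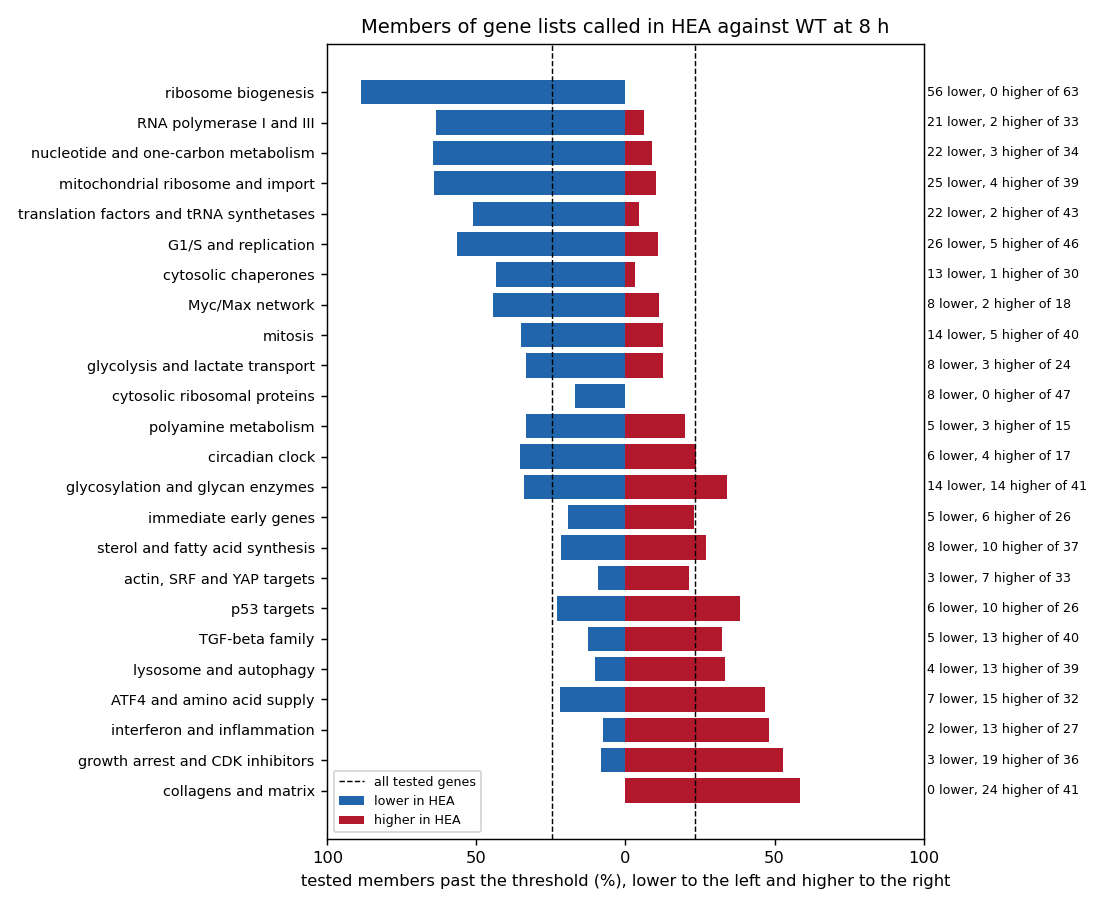
Share of tested members called lower (blue, to the left) or higher (red, to the right) in HEA against WT at 8 h, for 24 gene lists, as percent of tested members with the counts at the right. Dashed lines mark the shares over all tested genes, 24.6% lower and 23.4% higher. Ribosome biogenesis (56 of 63 lower) and collagens and matrix (24 of 41 higher) are at the ends.

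Several lists of biosynthesis leaned the same way. In nucleotide and one-carbon metabolism 22 of 34 members fell and 3 rose (median -0.33). Slc19a1, the reduced folate carrier, had 23.5, 22.7 and 21.1 RPKM in HEA, 59.4, 54.1 and 59.7 RPKM in WT, and 30.7, 31.2 and 33.6 RPKM in EV (log2 -1.34 ± 0.08, adjusted p = 4.1e-11). The purine synthesis enzyme Pfas (log2 -0.88) and the folate enzyme Mthfd1 (log2 -1.15) had EV between the forms as well, without overlap. Dut, which removes dUTP, and Psat1, of serine synthesis, passed as slightly higher (log2 0.20 and 0.14). Dut missed the threshold without HEA replicate 3 or WT replicate 3 (adjusted p = 0.053 and 0.060), and Psat1 without WT replicate 2 (adjusted p = 0.065), where the count of higher members was 1.

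Mitochondrial ribosome and import genes had 25 of 39 members lower and 4 higher (median -0.25). Timm10, a chaperone of the intermembrane space, averaged 20.7 ± 2.5 RPKM in HEA, 53 ± 4.4 RPKM in WT and 50.4 ± 4.3 RPKM in EV (log2 -1.34 ± 0.10). WT and EV overlapped for Timm10, whereas for Mrpl16, of the large mitochondrial ribosomal subunit, EV lay apart from both forms (log2 -1.22). Against this trend Mrpl4, of the same subunit, rose (log2 0.51), with 24.4, 23.7 and 25.4 RPKM in HEA, 16.7, 17.4 and 17.0 RPKM in WT, and 17.3, 16.0 and 17.5 RPKM in EV. The 4 higher members became 1 without HEA replicate 3, and 2 without HEA replicate 2, WT replicate 1 or WT replicate 2.

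In polyamine metabolism 5 of 15 members fell and 3 rose (median 0.00). Spermidine synthase, Srm, averaged 67.0 ± 4.4 RPKM in HEA, 114 ± 9.8 RPKM in WT and 90.5 ± 3.7 RPKM in EV (log2 -0.76), while the spermine oxidase gene Smox had 2.94, 2.92 and 2.89 RPKM in HEA, 1.11, 1.02 and 0.964 RPKM in WT, and 1.63 RPKM in each EV library (log2 1.16). The synthetic and the breakdown enzyme were thus on opposite sides. Glycolysis and lactate transport had 8 of 24 members lower and 3 higher (median -0.06). Pfkfb3, which makes the activator of phosphofructokinase, had 3.89, 3.27 and 5.01 RPKM in HEA, 14.6, 12.2 and 17.7 RPKM in WT, and 5.92, 5.94 and 7.07 RPKM in EV (log2 -1.75 ± 0.18, adjusted p = 9.5e-08). Pfkm, the muscle type phosphofructokinase, rose (log2 0.59), and its EV level was below both forms. Cytosolic chaperones had 13 of 30 members lower and 1 higher (median -0.12), the higher one being the Hsp40 gene Dnajb1 (log2 0.66), with 2 higher without WT replicate 2.

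Amino acid supply was divided. Of 32 tested members of the list of ATF4 targets and amino acid supply, 15 rose and 7 fell (median 0.08). The glutamine transporter gene Slc1a5 had 17.3, 22.1 and 19.8 RPKM in HEA, 53.7, 51.8 and 57.6 RPKM in WT, and 34.0, 37.5 and 33.4 RPKM in EV (log2 -1.44 ± 0.08, adjusted p = 2.5e-11). Gpt2, a mitochondrial alanine transaminase, went the other way with 40.5, 42.4 and 43.4 RPKM in HEA, 20.3, 18.7 and 18.1 RPKM in WT, and 26.2, 23.7 and 25.2 RPKM in EV (log2 1.13 ± 0.07). Chac1, which degrades glutathione, also rose (log2 1.32). All 3 genes had EV between the forms.

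Lipid synthesis showed no lean, with 10 of 37 members higher and 8 lower (median 0.00), but held wide single differences. Dgat1, which completes triglycerides, had 87.2, 83.1 and 82.9 RPKM in HEA, 26.2, 27.1 and 29.2 RPKM in WT, and 32.8, 33.8 and 31.3 RPKM in EV (log2 1.60 ± 0.10, adjusted p = 1.1e-10). Dgat2, a second enzyme of the same reaction, had 11.6, 14.1 and 12.4 RPKM in HEA, 25.2, 25.2 and 27.1 RPKM in WT, and 4.38, 3.74 and 4.27 RPKM in EV (log2 -1.0 ± 0.13). The enzymes of this step thus differed in opposite directions between the forms, and for Dgat2 both forms were above EV (log2 1.51 in HEA and 2.51 in WT). Agpat2, which acts earlier in the pathway, rose as well (log2 1.26), with overlapping WT and EV.

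Cell cycle genes leaned lower and arrest genes higher. In the list of G1/S and replication, 26 of 46 members fell and 5 rose (median -0.23). Ccne1, the G1/S cyclin E1, had 10.9, 16.6 and 15.1 RPKM in HEA, 42.9, 39.1 and 39.5 RPKM in WT, and 31.0, 29.4 and 29.0 RPKM in EV (log2 -1.50 ± 0.13, adjusted p = 6.0e-09). Rb1, the retinoblastoma protein that restrains S phase entry, stood on the opposite side with 7.26, 8.42 and 7.56 RPKM in HEA, 2.71, 2.89 and 2.19 RPKM in WT, and 4.03, 4.87 and 3.98 RPKM in EV (log2 1.42 ± 0.16). The replication factor Mcm10 fell (log2 -0.89) and Orc1, of the origin recognition complex, rose (log2 0.41). The 5 higher members became 3 without HEA replicate 3.

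Mitosis genes differed less: 14 of 40 fell and 5 rose (median -0.12), or 9 lower without HEA replicate 2 and 3 higher without HEA replicate 3. Espl1, the separase, had 31.3, 29.7 and 28.3 RPKM in HEA, 55.2, 52.0 and 62.9 RPKM in WT, and 37.1, 36.0 and 37.7 RPKM in EV (log2 -0.92 ± 0.09). Pttg1, the securin that inhibits it, rose (log2 0.61), and for both genes EV lay between the forms. Cdk1 averaged 47.5 ± 0.72 RPKM in HEA, 57.5 ± 1.1 RPKM in WT and 51.0 ± 0.99 RPKM in EV (log2 -0.27).

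Of the list of growth arrest genes and cyclin-dependent kinase inhibitors, 19 of 36 tested members rose and 3 fell (median 0.34), or 15 and 5 without WT replicate 3. Beside Cdkn1a, Sesn3, a sestrin that restrains mTORC1, had 26.5, 25.8 and 27.2 RPKM in HEA, 10.1, 10.6 and 11.5 RPKM in WT, and 20.5, 17.7 and 19.2 RPKM in EV (log2 1.26 ± 0.11, adjusted p = 8.9e-09). Gadd45a, a stress-induced arrest gene, showed another order, with 40.9, 43.4 and 44.1 RPKM in HEA, 23.1, 22.3 and 22.6 RPKM in WT, and 52.0, 47.0 and 47.1 RPKM in EV. HEA was above WT (log2 0.90) and below EV by a difference that did not pass (log2 -0.18, adjusted p = 0.089). Cebpa, a differentiation factor, and Tob2, an antiproliferative gene, fell (log2 -1.61 and -0.59).

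Targets of p53 had no single direction, with 10 of 26 higher and 6 lower (median 0.33). Btg2, an antiproliferative gene, rose (log2 1.86), with 8.97, 14.7 and 12.8 RPKM in HEA, 2.33, 3.33 and 3.18 RPKM in WT, and 8.56, 8.48 and 8.15 RPKM in EV. Aen, an apoptosis-enhancing nuclease, fell (log2 -0.85), as did Trp53, the p53 gene itself (log2 -0.48). Cdkn1a belongs to this list too.

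**Figure D4:**
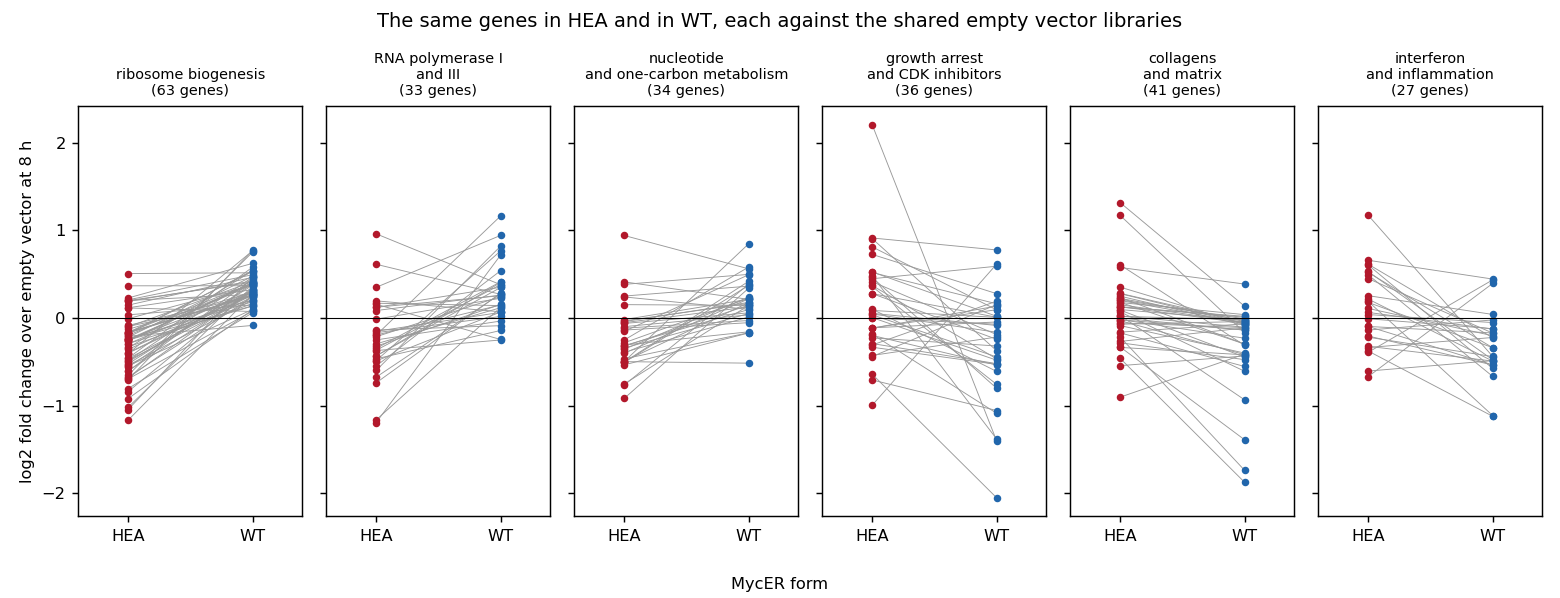
Log2 fold change over EV at 8 h for every tested member of 6 lists, in HEA (red, left) and in WT (blue, right), with a line joining each gene. Both columns of a panel use the same 3 EV libraries. In ribosome biogenesis the medians are -0.26 in HEA and 0.32 in WT, in growth arrest 0.05 and -0.20, in collagens and matrix 0.07 and -0.11, and in interferon and inflammation 0.06 and -0.34.

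Genes of the extracellular matrix rose without exception among those called at 8 h. Of 41 tested members, 24 were higher in HEA, 0 lower and 17 not past the threshold (median 0.22). The count of higher members ran from 18 to 30 in the alternatives. It was 29 without WT replicate 3 and 21 with median centring. At 4 h 19 members were higher and 2 lower, and the change between the times passed in 0 of the 41. Adamts5, an aggrecan-cutting protease, had 54.5, 47.9 and 45.1 RPKM in HEA, 22.5, 28.1 and 26.9 RPKM in WT, and 30.9, 34.2 and 31.1 RPKM in EV (log2 0.92 ± 0.10, adjusted p = 2.6e-07). Loxl2, a collagen cross-linking lysyl oxidase, had 3.52, 3.84 and 3.49 RPKM in HEA, 1.44, 1.67 and 1.72 RPKM in WT, and 3.34, 3.63 and 3.63 RPKM in EV (log2 0.96 ± 0.12). Its HEA and EV levels overlapped and WT alone was low, unlike Adamts5, where EV lay between. The matrix list's median against EV was 0.07 in HEA, with 12 higher and 2 lower (20.2% and 27.5% of all tested genes). In WT it was -0.11, with 1 higher and 14 lower (15.2% and 20.1% of all tested genes). With median centring these counts were 15 higher and 2 lower in HEA, and 1 higher and 11 lower in WT. Over all 12268 tested genes centring gave 3053 higher and 2642 lower in HEA, and 2433 higher and 1976 lower in WT. Fibroblast markers include some of the same collagens, and 6 of 11 rose, none fell. Col1a2 averaged 98.0 ± 5.5 RPKM in HEA, 77.6 ± 2.1 RPKM in WT and 82.3 ± 3.3 RPKM in EV (log2 0.33).

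In the TGF-beta family 13 of 40 members rose and 5 fell (median 0.16). Inhbb, the beta B chain of activins and inhibins, had 4.26, 4.59 and 2.84 RPKM in HEA, 0.0842, 0.167 and 0.210 RPKM in WT, and 0.145, 0.302 and 0.253 RPKM in EV (log2 2.73 ± 0.23, adjusted p = 4.5e-09). HEA was the sole group above 1 RPKM. The receptor gene Tgfbr2 had 80.4, 78.9 and 77.4 RPKM in HEA, 39.8, 47.5 and 43.4 RPKM in WT, and 66.3, 62.9 and 64.6 RPKM in EV (log2 0.85 ± 0.07). Smad3, which carries the signal to the nucleus, averaged 41.1 ± 2.4 RPKM in HEA, 25.9 ± 1.3 RPKM in WT and 40.9 ± 1.3 RPKM in EV, so that HEA and EV overlapped. The activin receptor gene Acvr1b (log2 -0.73) and the ligand gene Gdf11 (log2 -0.39) fell.

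Actin genes with SRF and YAP targets had 7 of 33 members higher and 3 lower, beside 23.4% and 24.6% of all tested genes. The median was 0.04, and 4 were higher without WT replicate 1. At 4 h the same list had 0 members higher and 11 lower, but the change between the times passed in 0 of the 33. Srf, the serum response factor, fell (log2 -0.75), at 24.2 ± 3.8 RPKM in HEA, 40.9 ± 5.1 RPKM in WT and 39.6 ± 0.82 RPKM in EV. Immediate early genes, the first response to serum, had 6 of 26 higher and 5 lower, near those shares. Their median was 0.04, and 3 were lower without HEA replicate 1 or WT replicate 3. Dusp1, a phosphatase of MAP kinases, rose (log2 1.04) and Dusp6, of the same family, fell (log2 -0.78). Dusp6 had 11.5, 18.6 and 15.6 RPKM in HEA, 23.0, 27.7 and 27.5 RPKM in WT, and 37.1, 34.6 and 36.6 RPKM in EV, so both forms were below EV.

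Of 27 tested interferon and inflammation genes, 13 rose and 2 fell (median 0.31). Irf1, a transcription factor of the interferon response, had 31.2, 33.4 and 33.7 RPKM in HEA, 14.2, 15.2 and 13.8 RPKM in WT, and 24.3, 21.4 and 23.8 RPKM in EV (log2 1.16 ± 0.07, adjusted p = 4.9e-11). The class I antigen gene H2-D1 had 47.2, 49.9 and 44.8 RPKM in HEA, 22.2, 23.3 and 24.3 RPKM in WT, and 33.6, 32.7 and 31.4 RPKM in EV (log2 1.01 ± 0.06). Both genes had 3 separate levels with EV in the middle. Class I genes share sequence, so reads of H2-D1 and H2-K1 (log2 0.84) may be divided between copies. The 2 genes that fell, Ifit3 and Bst2, are induced by interferon and rest on few libraries: Ifit3 had 3.57, 5.09 and 10.5 RPKM in HEA, and did not pass without HEA replicate 1 (adjusted p = 0.061). Bst2 stood at 0.259 to 0.892 RPKM in HEA and 0.819 to 1.68 RPKM in WT, which overlap, and was lost without HEA replicate 1 or 2 or WT replicate 2 or 3 (adjusted p 0.059 to 0.13).

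Clock genes held some of the widest differences outside the extremes. The clock list had 4 of 17 members higher and 6 lower, beside 23.4% and 24.6% of all tested genes (median -0.20). Arntl, the activator BMAL1, had 13.8, 14.0 and 13.3 RPKM in HEA, 1.36, 2.52 and 2.17 RPKM in WT, and 9.02, 8.54 and 8.34 RPKM in EV (log2 2.53 ± 0.13, adjusted p = 6.1e-12). Nr1d1, the repressor REV-ERB alpha, which is known to bind and lower Arntl, had 5.51, 4.75 and 5.39 RPKM in HEA, 33.7, 29.4 and 32.9 RPKM in WT, and 6.97, 10.2 and 9.91 RPKM in EV (log2 -2.51 ± 0.13, adjusted p = 6.5e-12). The activator and its repressor were at opposite ends, and EV lay between the forms for each. Nfil3, a further repressor of the clock output, rose (log2 1.06).

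The Myc/Max network of Myc's own relatives and partners had 2 of 18 members higher and 8 lower (median -0.06). Mycl, a paralogue of Myc, had 7.46, 7.40 and 5.33 RPKM in HEA, 0.662, 0.680 and 0.563 RPKM in WT, and 1.28, 1.19 and 1.25 RPKM in EV (log2 2.66 ± 0.16, adjusted p = 4.8e-11). Mxd4, which pairs with Max and opposes Myc, had 30.6, 38.6 and 41.6 RPKM in HEA, 9.65, 11.4 and 12.8 RPKM in WT, and 25.7, 21.5 and 24.9 RPKM in EV (log2 1.66 ± 0.15). These were the 2 that rose, and EV lay between the forms for both. Tfeb, an activator of lysosome genes that is listed here as a related factor, fell (log2 -1.15). Lysosome and autophagy genes had 13 of 39 higher and 4 lower (median 0.08), with the proton pump subunit Atp6v0d1 higher (log2 0.98) and the enzyme Gusb lower (log2 -1.34). Glycosylation and glycan enzymes had 14 of 41 members on each side (median 0.02). Chst15, a sulfotransferase of chondroitin sulfate, had 22.6, 20 and 18.8 RPKM in HEA, 4.22, 3.21 and 3.33 RPKM in WT, and 2.26, 2.35 and 2.17 RPKM in EV (log2 2.37 ± 0.13), and B4galnt4, which adds N-acetylgalactosamine, fell (log2 -1.89).

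The same contrast at 4 h uses other libraries and gave 6073 called genes (49.5%), 2772 higher (22.6%) and 3301 lower (26.9%). Replicate 3 of WT stood apart at 4 h too. Its chi-square per degree of freedom was 17.8 and 12.6, against 4.21 between the other WT libraries and 6.82 to 12.9 among the HEA libraries at 4 h. The 4 h calls were 4856 without it, and 3945 when only the groups compared entered the fit. Of the genes higher at 8 h, 2038 were also called higher at 4 h, 71.1% of the 8 h list and 73.5% of the 4 h list. Of those lower at 8 h, 2251 were called lower at 4 h, 74.5% of the 8 h list and 68.2% of the 4 h list. Genes at least 2-fold apart at 4 h were 4.29% of those tested on the higher and 2.51% on the lower side, and among the lower ones the shared 238 made up 53.7% of the 8 h list and 77.3% of the 4 h list. There were 12 genes called in opposite directions. All 20 genes of widest difference were called at 4 h in the same direction. The list of ribosome biogenesis had 52 of 63 members lower and none higher at 4 h, and that of cytosolic ribosomal proteins 31 of 47 lower. The change in that list between the times was not past the threshold for any of its 47 members, with 4 upward at an unadjusted limma p under 0.05 and 0 with voom. Call counts or medians of some lists differed between 4 h and 8 h, which is not a test of change. ATF4 targets and amino acid supply had 11 members higher and 11 lower at 4 h (15 and 7 at 8 h). Lipid synthesis had 8 higher and 16 lower (10 and 8 at 8 h), and the p53 target median was -0.04 (0.33 at 8 h). The change between the times itself passed, upward, in 3 of 32 members of the ATF4 list and 1 of 37 of lipid synthesis. It passed in 0 of 26 p53 targets, beside 0.53% of all tested genes.

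A test of the change itself, the 8 h difference minus the 4 h difference, passed in 65 genes (0.53%), 35 upward (0.285%) and 30 downward (0.245%). In 55 of the 65 the 8 h difference was the larger in size. Chac1 differed by 1.32 at 8 h and 0.23 at 4 h (change 1.10 ± 0.13, adjusted p = 0.00095). Papss2, which makes the sulfate donor of sulfotransferases, differed by 2.69 at 8 h and 1.70 at 4 h, and Fam114a1 by 1.51 and 0.79. Smpdl3b moved further down, with -3.28 at 8 h and -2.14 at 4 h (change -1.15 ± 0.16, adjusted p = 0.0027). Abcb1b, a drug efflux pump, differed by -2.03 at 8 h and -1.32 at 4 h, and Soat1, which esterifies cholesterol, by -1.53 and -0.99. For Papss2 the mean level was 27.2 RPKM in HEA and 3.80 RPKM in WT at 8 h, and 22.8 RPKM in HEA and 6.65 RPKM in WT at 4 h. The count of 65 ran from 13 without HEA replicate 3 at 8 h to 114 without HEA replicate 3 at 4 h, and was 37 without WT replicate 3 at 8 h. It was 2, both upward, when only the 4 groups compared entered the fit, and 36 with the replicate number as a block. Of the 15 named genes that passed, only Chac1 did so under all 22 alternatives.

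**Figure D5:**
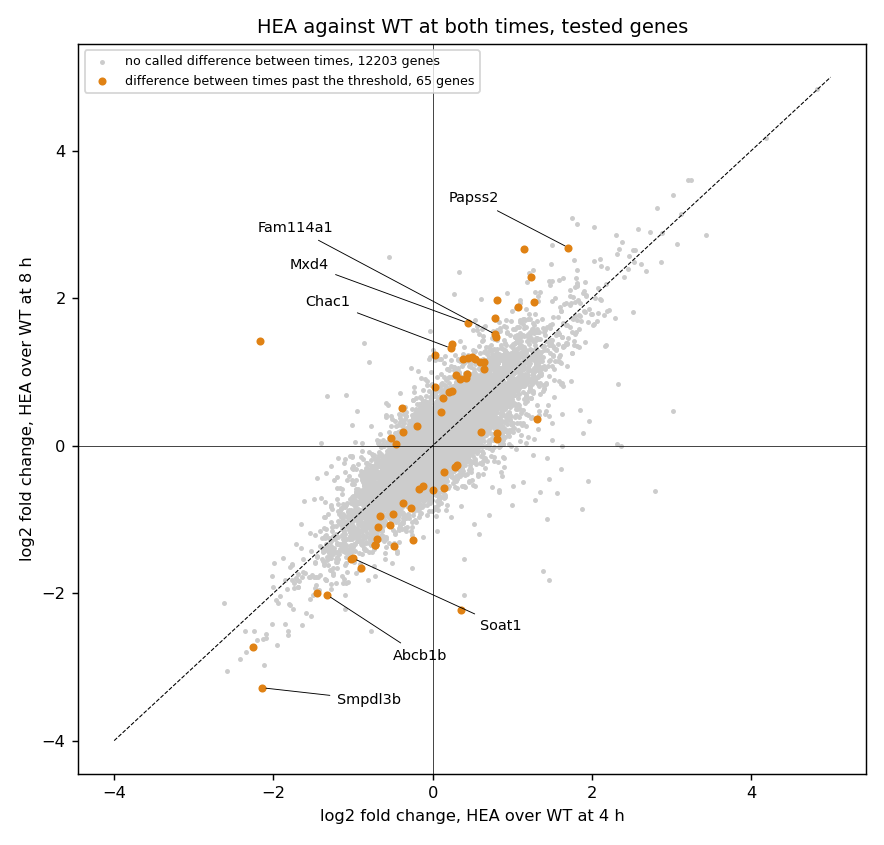
Log2 fold change of HEA over WT at 8 h (vertical axis) and 4 h (horizontal axis), 1 point per tested gene, with equality as the dashed line. Orange points are the 65 genes whose change between the times passed the threshold. Smpdl3b lies at -3.28 and -2.14 and Papss2 at 2.69 and 1.70 at 8 h and 4 h.

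Markers of epithelial, endothelial, muscle and adipocyte cells were low in all groups. The summed level of 12 epithelial markers was 0.963 to 1.58 RPKM in HEA, 1.24 to 1.54 RPKM in WT and 1.02 to 1.4 RPKM in EV, with 4, 5 and 5 of them at 0. The 12 fibroblast markers summed to 888 to 957 RPKM in HEA, 772 to 889 RPKM in WT and 827 to 843 RPKM in EV, led by vimentin, Vim. Endothelial markers summed to 1.9 to 2.95 RPKM in HEA, 3.52 to 4.35 RPKM in WT and 2.24 to 2.77 RPKM in EV. Muscle markers summed to 1.59 to 3.29 RPKM in HEA, 2.04 to 3.64 RPKM in WT and 4.35 to 6.12 RPKM in EV, and adipocyte markers to 3.53 to 6.96 RPKM in HEA, 6.86 to 7.75 RPKM in WT and 4.71 to 6.69 RPKM in EV. The 11 macrophage markers summed to 20.1 to 22.8 RPKM in HEA, 24.5 to 26.9 RPKM in WT and 23.1 to 25.8 RPKM in EV, so the HEA and WT ranges did not overlap. Of these, 8 were under 1 RPKM in each group, with 3, 4 and 3 at 0. The highest by mean was Cd14 in HEA (10.9 RPKM) and Cd68 in WT (14.1 RPKM) and EV (12.5 RPKM), and Cd68, a lysosomal glycoprotein gene, fell (log2 -0.58). The part of the macrophage and endothelial markers in the results was not tested. The 8 nuclear and RNA quality transcripts summed to 462 to 491 RPKM in HEA, 494 to 527 RPKM in WT and 454 to 500 RPKM in EV. In that list Snhg12 (log2 -0.78) and Gas5 (log2 -0.40), hosts of small nucleolar RNAs, fell. Snhg1, a further host gene (log2 -0.22, adjusted p = 0.046), did not pass without any of 4 of the 6 libraries (adjusted p 0.12 to 0.19), nor after quantile normalisation (0.077), with no filter (0.066), with no trend (0.064) or when only the groups compared entered the fit (0.12).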

How the data were processed

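RNA-seq libraries of total RNA were made with a stranded kit, per the labels' protocols. The submitters' processing notes name TopHat2 2.0.8, featureCounts 1.4.5-p1, DESeq2 and the build mm9. Per the file headers the authors deposited RPKM, and the table lists 21671 genes; their table of comparisons was not used here. RPKM are not counts, so limma-trend (limma 3.58.1, R 4.3.3) was run on log2(RPKM + 0.5) over genes with at least 1 RPKM in at least 3 of 24 libraries. All 8 groups (EV, WT, HEA and RA, each at 4 h and 8 h) entered 1 fit, which left 16 residual degrees of freedom. Benjamini-Hochberg adjustment ran over all 12268 tested genes in each comparison, with 0.05 as the threshold. How strand was handled in counting is not given in those sources, so overlapping and antisense genes cannot be told apart. Python 3.11.15, numpy 2.4.6, pandas 2.3.3 and matplotlib 3.10.9 did the rest.

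The values are multiples of what 1 read is worth in each gene, and 100% of 362673 values above 0 were whole reads within 0.01 read, giving totals of 9.82 to 12.8 M per library. In 244 genes the mean was above 1 read per base. The fit was run on simulated reads before use, with the same spread in every library and few changed genes. Those simulated data held no library that stands apart, so they do not show how the fit treats one.

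Genes named are Myc, Esr1, the 10 highest and 10 lowest called genes of HEA against WT at 8 h (at least 1 RPKM, libraries not overlapping, predicted and multi-copy genes passed over), per list the 3 called members with the smallest p and up to 2 against the list's majority, and 3 genes per direction of the change between times. The members of the lists, the lists and the rules were chosen with earlier results of these data known. RefSeq promoter windows (GRCm38.p6) were matched by symbol. Alternatives were quantile normalisation, median centring, pseudocounts of 0.1 and 1, no filter, only the groups compared, no trend, voom on the recovered reads, a replicate block, and each library left out. Replicate numbers were not used as pairs: the deviations of same-numbered HEA and WT libraries correlated at -0.28 to 0.04 at 8 h and at 0.03 to 0.41 at 4 h, not each above 0.1.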

Additional observations from a re-analysis of the deposited data

Results flagged for a closer look

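These results stand out because the difference between HEA and WT changed between 8 h and 4 h by a test of the change itself (8 h minus 4 h, log2 scale, HEA over WT). The change passed in 65 genes of 12268, in 2 when only the groups compared entered the fit, and in 36 with the replicate number as a block. Upward changes among the named genes were those of Mxd4 (1.22), Chac1 (1.10), Papss2 (0.98), Fam114a1 (0.72), Gadd45a (0.56), Atp6v0d1 (0.54), Gpt2 (0.54) and Smad3 (0.52). Downward changes were those of Smpdl3b (-1.15), Abcb1b (-0.71), Slc19a1 (-0.62), Gusb (-0.62), Soat1 (-0.54), St6galnac4 (-0.48) and Heatr1 (-0.29). All 15 kept their sign in the 22 alternatives, but 1 of them, Chac1, was past the threshold in every alternative and 6 missed it in 1. Heatr1 passed in 5 of the 22, Gadd45a in 7 and Atp6v0d1 in 9.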

How the results depend on the processing

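The 5887 calls of HEA against WT at 8 h became 5106 to 5609 when a library was left out and 5307 to 6260 under the other alternatives, each within 1.5 times. At 4 h the count was 6073, and 3945 when only the groups compared entered the fit. The change between the times passed in 65 genes, in 103 after quantile normalisation, in 2 when only the groups compared entered, in 39 without both WT libraries that stand apart (replicate 3 at 8 h and at 4 h, an alternative chosen after seeing the data), and in 13 to 114 when a library was left out. With the replicate number as a block, HEA against WT at 8 h gave 5891 calls and the change between the times 36, and since the deviations of same-numbered HEA and WT samples correlated at -0.28 to 0.04 at 8 h and 0.03 to 0.41 at 4 h, not each above 0.1, the numbers are not taken as pairs. Of 126 named genes 124 passed at 8 h, 114 of them in all 16 alternatives, and none reversed there. Psat1 at 4 h reversed after quantile normalisation (log2 0.10, adjusted p = 0.016, against -0.02). Quantile normalisation also gave 12 in place of 7 actin, SRF and YAP targets higher, 6 in place of 3 glycolysis genes higher, 5 in place of 2 translation genes higher, and 2 in place of 0 cytosolic ribosomal proteins higher. Median centring moved the share of higher calls against EV to 53.6% in HEA and 55.2% in WT, in place of 42.3% and 43.0%. The causes were not tested. Depth of 9.82 to 12.8 M reads and 3 libraries per group limit what low genes can show.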
